A study of Mus musculus with 4 samples.

Results

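Joins of Sμ breaks that landed downstream of the bodies of the switch regions Sμ and Sγ1 were examined in activated mouse B cells. They were chosen by their measured position in the deposited lists of junctions in the deletional (minus) orientation, as all joins at mm9 chromosome 12 coordinates below 114662305 in the Sμ list and below 114570384 in the Sγ1 list. Each border is the downstream edge of the central 95% of the Wildtype deletional joins of its region, so the Wildtype share beyond it was fixed by the choice. There were 449 such joins among 18731 junctions, 206 downstream of Sμ and 243 downstream of Sγ1. On this chromosome arm the constant genes are read towards lower coordinates, so a lower coordinate lies farther downstream.

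The cells were CD43- splenic B cells of mice whose heavy chain and kappa variable regions came preassembled, kept for 4 days with anti-CD40 (1 ng/ml) and IL-4 (20 ng/ml). The Wildtype library was CD21Cre+, CtIP +/C and XRCC4 +/C and held 9435 junctions. CtIP_AA was CtIP T855A/T855A, with no Cre and no XRCC4 allele in its label, and held 3220. CtIP_KO was CD21Cre+, CtIP C/- and XRCC4 +/C and held 2555. XRCC4_KO was CD21Cre+, CtIP +/- and XRCC4 C/- and held 3521. CD21Cre deletes in B cells, the Wildtype library itself carried 1 C allele of each gene, and XRCC4_KO also had a single CtIP copy. Each genotype was 1 library, and the sources used here do not give the number of mice behind it, so every test below compares libraries by their join counts, with counting error only. The strain was given as BL6 in one label and as 129Sv in another.

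Class switch recombination exchanges the IgM constant gene for one farther downstream. The deaminase AID starts breaks in repeats rich in the tetramer AGCT that make up each switch region, and an upstream break in Sμ is joined to a downstream one, with the DNA between them deleted. Joining is mostly by classical end joining, in which XRCC4 and DNA ligase IV seal the ends. In its absence ends can be joined by other routes, often after nucleases have removed bases and exposed short matching stretches (microhomology). CtIP promotes the first step of that end resection, and T855 is a site whose phosphorylation is linked to that role. Most breaks are made in those repeats. The borders used here come from Wildtype join positions and not from the ends of the repeats, so tail joins near them can still lie in repeats.

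Reads of some of these joins are printed from 5′ to 3′ on the minus strand of mm9 chromosome 12, from the Sμ bait into the partner (prey) sequence. They are examples and do not measure how the tails differed from the body. In blunt joins the last 15 bait bases are in lower case and the first 30 prey bases in capitals. The first set gives blunt joins in Sμ: the Wildtype join farthest from the border (prey 114660258), 2 Wildtype joins at coordinates hit more than once (114662012 and 114661773), the farthest of XRCC4_KO (114658366), and for contrast a body join at the Wildtype library's most frequent blunt coordinate (114663656).
Wildtype 114660258: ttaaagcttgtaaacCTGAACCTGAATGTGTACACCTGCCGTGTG
Wildtype 114662012: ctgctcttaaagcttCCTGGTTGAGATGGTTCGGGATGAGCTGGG
Wildtype 114661773: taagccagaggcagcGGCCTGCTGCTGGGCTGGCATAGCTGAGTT
XRCC4_KO 114658366: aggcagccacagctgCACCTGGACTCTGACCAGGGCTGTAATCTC
Wildtype body 114663656: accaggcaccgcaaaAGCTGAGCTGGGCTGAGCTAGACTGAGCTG

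The second set gives, for Sγ1, the blunt join of each library farthest downstream of the border, followed by a body join at the Wildtype library's most frequent blunt coordinate (114573984).
Wildtype 114566603: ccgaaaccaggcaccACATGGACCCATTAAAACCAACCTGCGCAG
CtIP_AA 114569083: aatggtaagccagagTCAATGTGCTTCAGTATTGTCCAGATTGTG
CtIP_KO 114566479: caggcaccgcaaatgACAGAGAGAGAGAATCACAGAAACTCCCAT
XRCC4_KO 114568097: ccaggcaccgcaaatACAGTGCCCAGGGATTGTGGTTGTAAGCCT
Wildtype body 114573984: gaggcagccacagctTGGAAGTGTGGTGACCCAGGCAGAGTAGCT

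The CtIP_AA and CtIP_KO libraries had no listed blunt join downstream of Sμ. The third set therefore shows the CtIP_AA tail joins with the longest microhomology, 5 bp in Sμ (prey 114658563, also the farthest Sμ join of that library) and 9 bp in Sγ1 (prey 114569466). Capitals mark the bases shared by bait and prey. The body joins and the microhomology joins were chosen for display after their values were seen.
CtIP_AA Sμ 114658563: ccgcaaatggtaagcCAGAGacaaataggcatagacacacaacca
CtIP_AA Sγ1 114569466: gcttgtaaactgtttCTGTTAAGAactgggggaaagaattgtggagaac

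Downstream of the Sμ body lay 45 of 1794 deletional joins in Wildtype (2.51%, 95% Wilson interval 1.88 to 3.34). CtIP_AA had 16 of 705 (2.27%, 1.40 to 3.65) and CtIP_KO had 12 of 436 (2.75%, 1.58 to 4.75). XRCC4_KO had 133 of 829 (16.0%, 13.7 to 18.7), the highest of the 4 libraries, and the intervals of the other libraries all overlapped one another. Downstream of Sγ1 lay 93 of 3706 in Wildtype (2.51%, 2.05 to 3.06), 19 of 1313 in CtIP_AA (1.45%, 0.928 to 2.25) and 26 of 950 in CtIP_KO (2.74%, 1.87 to 3.98). XRCC4_KO was again highest, with 105 of 1420 (7.39%, 6.15 to 8.87). These shares use the same measure that chose the joins and are given as a description, with no test. At the border itself the joins were dense: the nearest join inside the tails lay 4 to 88 bp below the Sμ border and 8 to 51 bp below the Sγ1 border, and the nearest outside lay 5 to 46 bp and 4 to 25 bp above them.

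The listed tail joins did not pile up at a few coordinates. The sources used here do not state whether repeated reads were merged before listing, so the counts describe listed joins and not reads. Downstream of Sμ, the 45 Wildtype joins had 40 distinct coordinates, the 16 of CtIP_AA had 15, the 12 of CtIP_KO had 11 and the 133 of XRCC4_KO had 125. Downstream of Sγ1 the distinct coordinates numbered 86, 19, 26 and 103 in the same order. The most joins at any 1 coordinate was 3, at 114662012 in Wildtype Sμ, 293 bp past the border. The other repeated coordinates named by the rule held 2 joins each. In Sμ these were 114662181 and 114661773 in Wildtype, 114662274 in CtIP_AA, 114662137 in CtIP_KO, and 114662038, 114661951 and 114661777 in XRCC4_KO. In Sγ1 they were 114570207, 114570195 and 114570054 in Wildtype and 114568663 and 114566504 in XRCC4_KO. At both repeated coordinates in the junction tables of CtIP_AA and CtIP_KO the listed bait ends differed, so 0 joins matched in bait and prey end. The bait was 40 and 44 bp in CtIP_AA, with alignment overlaps of -8 and -4 (negative values are inserted bases). In CtIP_KO it was 41 and 45 bp, with overlaps of -1 and 3. Bait length and overlap shifted together in each pair. The match of listed ends therefore cannot tell separate joins from copies of 1 molecule aligned differently, which was not tested.

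Coordinates were also seldom shared between libraries. Of the tail joins in Sμ, 11.1% of Wildtype (5 of 45), 0 of 16 in CtIP_AA (which allows up to 18.75%), 2 of 12 in CtIP_KO and 4.51% of XRCC4_KO (6 of 133) lay at a coordinate found in another library. In the Sμ body that share was 55.1%, 71.8%, 74.8% and 69.7%. In Sγ1 it was 15.1%, 10.5%, 11.5% and 7.62% in the tails and 52.0%, 68.3%, 66.6% and 62.7% in the body. Joins at shared coordinates could include the same molecules read in more than 1 library, which was not tested. With all shared coordinates left out, the tail share was 37.6% in XRCC4_KO and 4.84% in Wildtype for Sμ, and 16.5% and 4.36% for Sγ1. Leaving them out removes mostly body joins, so these shares have smaller denominators.

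**Figure D1:**
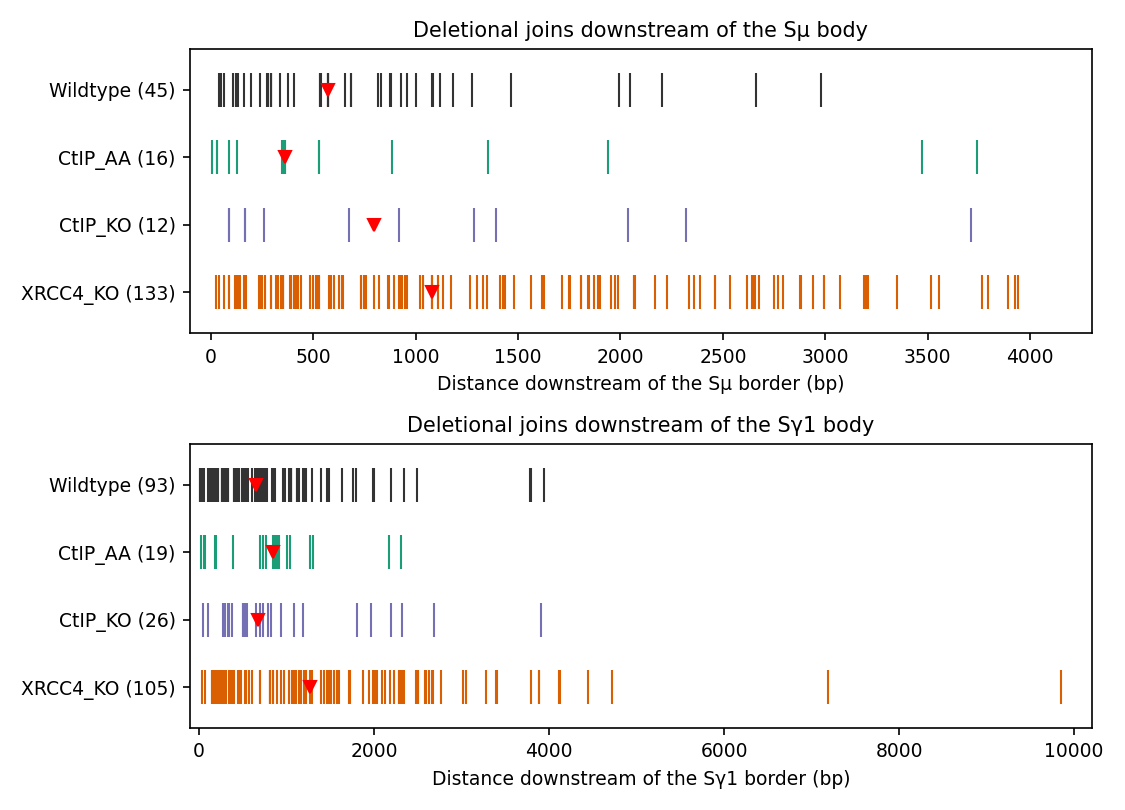
Position of every deletional join downstream of the Sμ border (top) and the Sγ1 border (bottom), as distance from the border in bp, with 1 tick per join and 1 row per library (number of joins in brackets). Red triangles mark the median, which lay at 1080 bp in Sμ and 1263 bp in Sγ1 for XRCC4_KO and at 570 and 648 bp for Wildtype.

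The farthest listed join differed by library. Each is a single join, and its distance depends on the number of tail joins, which also differed. In Sμ the farthest listed Wildtype join was 114659325, 2980 bp past the border. Those of CtIP_AA (114658563) and CtIP_KO (114658596) lay 3742 and 3709 bp past it, and that of XRCC4_KO (114658366) lay 3939 bp past it. The authors' Sμ window ends 4205 bp past the border, so joins farther out could not appear in that list, and the tails of the 3 mutant libraries came within 500 bp of that end. In Sγ1 the window runs on for 11884 bp. There the farthest joins of Wildtype (114566441) and CtIP_KO (114566479) lay 3943 and 3905 bp past the border. That of CtIP_AA (114568071) lay 2313 bp past it and that of XRCC4_KO (114560538) 9846 bp past it. The Sγ1 tail of XRCC4_KO thus had 6 joins beyond 4000 bp, where the other 3 libraries had 0. A count of 0 allows up to 0.0809% of the Wildtype, 0.228% of the CtIP_AA and 0.316% of the CtIP_KO joins. XRCC4_KO stood at 0.423% (0.194 to 0.919), an interval that holds the limits of both CtIP libraries.

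Distances within the tail also ran longer in XRCC4_KO. In Sμ the median tail join of Wildtype lay 570 bp past the border and that of XRCC4_KO 1080 bp, with CtIP_AA at 361 and CtIP_KO at 798 bp. In Sγ1 the medians were 648 bp for Wildtype, 1263 bp for XRCC4_KO, 851 bp for CtIP_AA and 675.5 bp for CtIP_KO. The medians moved with the border: from one 500 bp upstream, the Sμ values were 166 bp in Wildtype and 665 bp in XRCC4_KO. From one 500 bp downstream, CtIP_AA (854 bp) lay above Wildtype (431 bp) in Sμ and below it in Sγ1 (418 and 487 bp), the reverse of their order at the border used. The 90th percentile in Sμ was 1781.4 bp in Wildtype and 2980.4 bp in XRCC4_KO, and in Sγ1 it was 1730.6 and 3351 bp. Of the Sμ tail joins, 26.7% of Wildtype, 25% of CtIP_AA, 41.7% of CtIP_KO and 52.6% of XRCC4_KO lay more than 1000 bp out. The Sγ1 shares were 28.0%, 31.6%, 30.8% and 61.0%. In the CtIP libraries these shares rest on 4 to 8 joins per region. For comparison, in Sε (border 114511918) the tail of XRCC4_KO held 14 of 436 deletional joins (3.21%, 1.92 to 5.32) with a median distance of 438.5 bp, and that of Wildtype 62 of 2487 (2.49%) with a median of 893 bp. The far end of the Sε tail ran the other way, with a 90th percentile of 3662.8 bp in XRCC4_KO and 1959.9 bp in Wildtype and farthest joins at 4787 and 2744 bp.

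**Figure D2:**
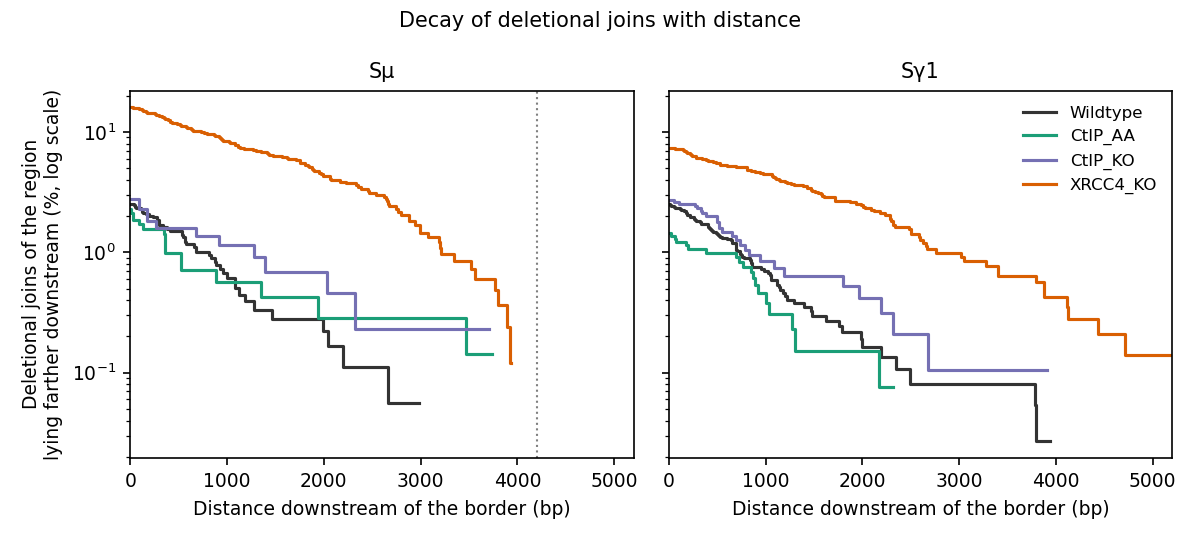
Share of all deletional joins of a region (log scale, %) that lay farther downstream than the distance on the x axis (bp), for Sμ (left) and Sγ1 (right), with 1 line per library. The dotted line marks the end of the authors' Sμ window at 4205 bp. Beyond 1000 bp, 8.44% of the Sμ joins of XRCC4_KO and 0.669% of those of Wildtype remained, and the Sγ1 axis stops before the 2 farthest XRCC4_KO joins.

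Joins thinned with distance in both Wildtype and XRCC4_KO, and sooner in Wildtype. In steps of 500 bp from the Sμ border, Wildtype had 18, 15, 7, 1, 2 and 2 joins and then 0 to the end of the window. XRCC4_KO had 36, 27, 18, 16, 10, 14, 5 and 7. As a density, Wildtype went from 20.1 joins per kb per 1000 deletional joins in the first 500 bp to 2.23 between 2500 and 3000 bp. XRCC4_KO went from 86.9 to 33.8 over the same distance and was still at 16.9 between 3500 and 4000 bp. In Sγ1 Wildtype had 40, 27, 15, 5 and 3 joins in the first 2500 bp, none in the next 1000 bp and 3 between 3500 and 4000 bp. XRCC4_KO had 26, 15, 18, 11, 14, 7, 5 and 3 in the first 4000 bp, in a library with fewer deletional Sγ1 joins.

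Taken over all deletional joins of the region, 12 of Wildtype lay more than 1000 bp past the Sμ border (0.669%, 0.383 to 1.17), against 70 in XRCC4_KO (8.44%, 6.74 to 10.5). Beyond 2000 bp these were 4 (0.223%) and 36 (4.34%, 3.15 to 5.95). In Sγ1, 26 Wildtype joins (0.702%, 0.479 to 1.03) and 64 of XRCC4_KO (4.51%, 3.55 to 5.71) lay beyond 1000 bp, and 6 (0.162%) and 35 (2.46%, 1.78 to 3.41) beyond 2000 bp. CtIP_KO had 3 Sμ joins (0.688%, 0.234 to 2.00) and 4 Sγ1 joins (0.421%, 0.164 to 1.08) beyond 2000 bp, and CtIP_AA had 2 in each region (0.284% and 0.152%). The intervals of both CtIP libraries overlapped those of Wildtype at each of these distances.

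Within the tails the joins were spread over many short windows. Of 22 windows of 200 bp in Sμ, Wildtype joins fell in 13, CtIP_AA and CtIP_KO in 8 each and XRCC4_KO in 20. Windows with 3 or more distinct coordinates numbered 6, 2, 1 and 17. In the XRCC4_KO Sμ tail neighbouring coordinates were a median of 18.5 bp apart and the longest empty stretch was 209 bp. In Wildtype those values were 38 and 524 bp. Of 60 windows in Sγ1, 15, 8, 12 and 23 were occupied, and 8, 3, 3 and 14 held 3 or more distinct coordinates. The longest empty stretch there was 1288 bp in Wildtype and 2654 bp in XRCC4_KO, both near the far end of the tail. The number of joins differs between libraries, and more joins fill more windows.

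Summed over the 4 libraries, which differ in size, the fullest window of each region was the one next to the border. In XRCC4_KO alone the fullest was the next window out in both regions. In Sγ1 of CtIP_KO that window and the one after it tied as the fullest, with 5 joins each. In Sμ, 114662105 to 114662304 held 31 joins over the 4 libraries (9 Wildtype, 5 CtIP_AA, 4 CtIP_KO and 13 XRCC4_KO). The next window, 114661905 to 114662104, held 29, of which 16 were from XRCC4_KO and 8 from Wildtype. In 114661705 to 114661904 there were 23, in 114661305 to 114661504 there were 18 and in 114661105 to 114661304 there were 15. The largest share of a library's Sμ tail in 1 window was 20% in Wildtype, next to the border, and 12.0% in XRCC4_KO, in the next window out. In Sγ1, 114570184 to 114570383 held 36 joins (18 Wildtype, 5 CtIP_AA, 2 CtIP_KO and 11 XRCC4_KO), and the windows from 114569984 and from 114569784 held 29 each. The window from 114569584 to 114569783 held 24, with 15 from Wildtype and 2 from XRCC4_KO. The window from 114569184 to 114569383 held 23, with 10 from Wildtype and 9 from XRCC4_KO. The largest share of a library's Sγ1 tail in 1 window was 19.4% in Wildtype, in the window next to the border, and 11.4% in XRCC4_KO, in the next one out.

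Joins past the end of the authors' windows were taken from the list of other heavy chain locus joins, which the rule did not use. In deletional orientation between the Sμ and Sγ1 windows (114588500 to 114658099) there were 25 joins in XRCC4_KO, 4 in Wildtype, 4 in CtIP_AA and 0 in CtIP_KO, which allows up to 0.688%. Over these and the listed Sμ joins the shares were 2.93% in XRCC4_KO (25 of 854, 1.99 to 4.29) and 0.222% in Wildtype (4 of 1798). The odds ratio was 13.5 (95% interval 4.64 to 53.6, Fisher's exact adjusted p = 1.31e-08 over 6 tests, a comparison chosen after the data were seen). CtIP_AA was at 0.564% (odds ratio 2.54, 0.472 to 13.7, exact adjusted p = 0.700). This stretch also holds Ighg3, the IgG3 constant gene, by the order of genes in the mouse annotation. Of the 25 joins in XRCC4_KO, 15 at 14 coordinates lay in the first 10 kb past the window, reaching 13586 bp from the Sμ border (114648719). Of those 15, 12 had microhomology, 1 was blunt and 2 had insertions. Wildtype had 2 joins in the same 10 kb, CtIP_AA had 1 and CtIP_KO had 0.

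Past the Sγ1 window (114516500 to 114558499, a stretch that includes other constant genes) deletional joins numbered 14 in XRCC4_KO (0.976%), 28 in Wildtype (0.750%), 11 in CtIP_AA (0.831%) and 8 in CtIP_KO (0.835%). The XRCC4_KO odds ratio was 1.30 (0.633 to 2.57, exact adjusted p = 0.786), and those of CtIP_AA and CtIP_KO were 1.11 each (adjusted p = 1). In the first 10 kb past this window lay 4 deletional joins of XRCC4_KO, 12 of Wildtype, 3 of CtIP_AA and 8 of CtIP_KO. The nearest of them lay 16689 bp past the Sγ1 border, against 9846 bp for the farthest listed tail join. Whether they continue the tail was not tested. No test was made of whether the Sμ and Sγ1 odds ratios differ from each other.

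Joins in the inversional (plus) orientation were not used to choose the tails and gave a separate measure of the same intervals. In Sμ, 15 of 295 inversional joins of XRCC4_KO lay downstream of the border (5.08%, 3.11 to 8.22), against 3 of 534 in Wildtype (0.562%, 0.191 to 1.64). The odds ratio was 9.46 (2.64 to 51.4, Fisher's exact adjusted p = 0.000224 over 6 tests). CtIP_AA had 2 of 143 (1.40%, odds ratio 2.51, exact adjusted p = 0.857) and CtIP_KO had 0 of 126, which allows up to 2.38%. With the border moved 500 bp upstream, into the dense Sμ joins, the direction turned: 32 of 295 in XRCC4_KO against 114 of 534 in Wildtype, an odds ratio of 0.449 (exact adjusted p = 0.000766). In Sγ1 the inversional shares downstream of the border were 2.94% in XRCC4_KO (5 of 170), 2.71% in Wildtype (9 of 332), 2% in CtIP_AA (2 of 100) and 3.09% in CtIP_KO (3 of 97). The XRCC4_KO odds ratio there was 1.09 (0.282 to 3.68, exact adjusted p = 1), so an excess of up to 3.68 lay within the interval.

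**Figure D3:**
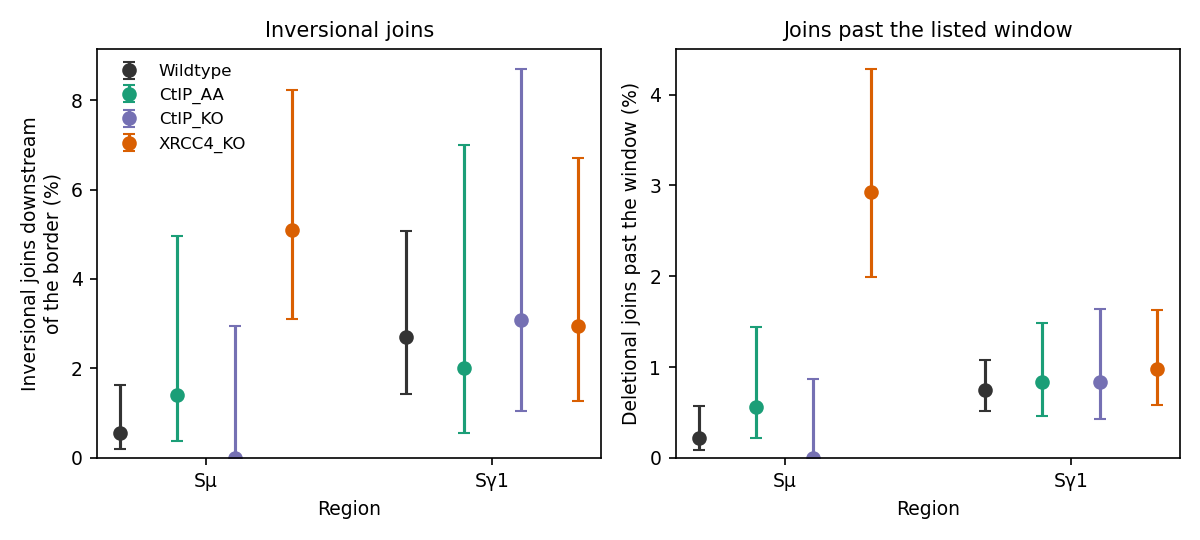
Left, share of inversional joins of each region (%) that lay downstream of the border. Right, deletional joins past the end of the authors' window as a share (%) of these and the listed deletional joins. Points are libraries and bars are 95% Wilson intervals. In Sμ, XRCC4_KO stood at 5.08% and 2.93% against 0.562% and 0.222% in Wildtype, and in Sγ1 the intervals of all 4 libraries overlapped.

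Blunt joins, with neither overlapping nor added bases, were then counted in the tails and in the body of the same region. In XRCC4_KO 7 of 133 Sμ tail joins were blunt (5.26%, 2.57 to 10.5), against 84 of 696 in the body (12.1%, 9.85 to 14.7). The odds ratio was 0.405 (0.154 to 0.901), which did not pass after adjustment over 8 tests (Fisher's exact adjusted p = 0.138, unadjusted 0.0222). With each coordinate counted once among blunt joins and once among the others it passed, at an odds ratio of 0.337 (exact adjusted p = 0.0368). A coordinate with joins of both kinds was thus counted in each. In Sγ1 7 of 105 tail joins of XRCC4_KO were blunt (6.67%, 3.27 to 13.1), against 13.9% of the body (odds ratio 0.442, 0.170 to 0.966, exact adjusted p = 0.138). In Wildtype the tails were 17.8% blunt in Sμ (8 of 45) and 17.2% in Sγ1 (16 of 93), against 20.9% and 23.1% of the body (odds ratios 0.820 and 0.694, exact adjusted p = 0.814 and 0.339).

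In the CtIP libraries the blunt tail counts were small. In Sμ, CtIP_AA had 0 of 16 (0 to 19.4%) against 20.0% of its body, and CtIP_KO had 0 of 12 (0 to 24.2%) against 21.0% (exact adjusted p = 0.138 and 0.275). All 16 and all 12 of these joins were in the full junction tables, where 5 of CtIP_AA and 2 of CtIP_KO had inserted bases and the rest had microhomology. In Sγ1, CtIP_AA had 4 of 19 (21.1%) against 21.9%, and CtIP_KO had 8 of 26 (30.8%, 16.5 to 50.0) against 23.2% (odds ratio 1.47, 0.547 to 3.62, exact adjusted p = 0.471).

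Set against the Wildtype tail, the odds ratio for blunt joins in the XRCC4_KO tail was 0.259 in Sμ (0.0746 to 0.879) and 0.346 in Sγ1 (0.114 to 0.942). Neither passed after adjustment over 6 tests (Fisher's exact adjusted p = 0.0782 for each). With the border 500 bp upstream both passed, at 0.259 (exact adjusted p = 6.60e-05) and 0.303 (adjusted p = 0.000847). That border moved body joins into the tails. In Sμ the Wildtype set grew from 45 to 279 joins and the XRCC4_KO set from 133 to 243. In the body, too, the blunt share of XRCC4_KO (12.1% and 13.9%) was below that of Wildtype (20.9% and 23.1%). In the Sγ1 tail the CtIP_KO odds ratio against Wildtype was 2.12 (0.678 to 6.31, exact adjusted p = 0.219) and that of CtIP_AA was 1.28 (adjusted p = 0.744). In Sμ both CtIP libraries had no blunt tail join to set against the 8 of Wildtype (exact adjusted p = 0.194 for CtIP_AA and 0.219 for CtIP_KO).

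**Figure D4:**
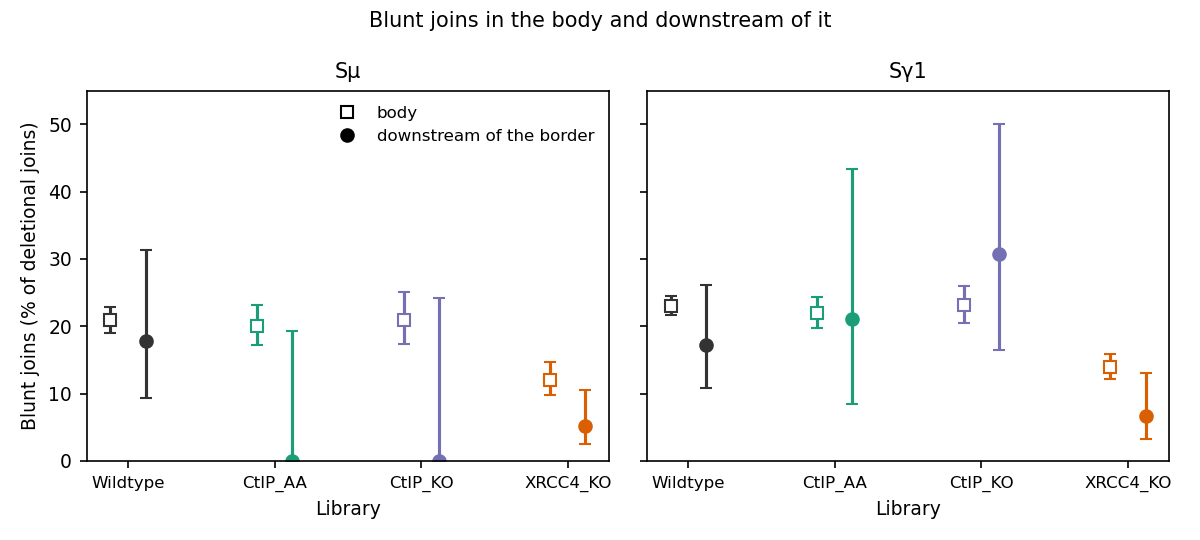
Blunt joins as a share (%) of deletional joins in the body of each region (open squares) and downstream of the border (filled circles), for Sμ (left) and Sγ1 (right). Bars are 95% Wilson intervals of 1 library each. The XRCC4_KO tails stood at 5.26% and 6.67%, below its body at 12.1% and 13.9%.

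The retained bait in blunt joins gives the other end of the deletion. In XRCC4_KO it had a median of 48 bp (34 to 151) in the Sμ tail and 49 bp (43 to 102) in the Sγ1 tail, with 7 joins each, against 64 and 60 bp in the body. In Wildtype it was 69.5 bp in the Sμ tail (8 joins) and 63.5 bp in the Sγ1 tail (16 joins), against 62 and 65 bp. In the Sγ1 tails of CtIP_AA and CtIP_KO it was 65.5 and 61 bp. The blunt Sμ tail joins removed 2767 to 4556 bp between bait and prey in Wildtype and 2973 to 6475 bp in XRCC4_KO.

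Microhomology, the overlap of the bait and prey alignments in a read, was counted in the tails of CtIP_AA and CtIP_KO, whose full junction tables of Sμ and Sγ1 were at hand. The same measure in the Wildtype and XRCC4_KO tails was not analysed here. In Sμ, 11 of 16 tail joins of CtIP_AA had microhomology (68.8%, 44.4 to 85.8), against 41.4% of its body (odds ratio 3.10, 0.981 to 11.5, Fisher's exact adjusted p = 0.0775 over 4 tests). CtIP_KO had 10 of 12 (83.3%, 55.2 to 95.3) against 46.4% (odds ratio 5.75, 1.20 to 54.6, exact adjusted p = 0.0650). Neither passed after adjustment. In Sγ1 the shares were 63.2% against 49.8% in CtIP_AA and 57.7% against 51.0% in CtIP_KO (exact adjusted p = 0.346 and 0.555). The median overlap of joins with microhomology was 2 bp in tail and body alike, in both regions of both libraries. The bait kept in Sμ tail joins of all structures had a median of 56 bp in CtIP_AA and 46.5 bp in CtIP_KO, against 65 and 60.5 bp in the body. In Sγ1 it was 64 bp in both tail and body of CtIP_AA, and 55.5 and 62 bp in CtIP_KO. The longest overlap was 5 bp in Sμ and 9 bp in Sγ1 for CtIP_AA, both printed above, and 3 and 4 bp for CtIP_KO.

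The tails also differed from the body in sequence, as their position fixes. The tetramer AGCT (its own reverse complement, so 1 search covers both strands) was looked for in the 20 reference bases around each join, 10 on either side, as the authors' tables give them. Among Wildtype blunt joins it was there in 1 of 8 in the Sμ tail and in 260 of 365 in the body (71.2%, 66.4 to 75.6). In Sγ1 it was there in 2 of 16 in the tail (12.5%) and in 37.1% of 833 in the body. In XRCC4_KO it was there in 2 of 7 Sμ and 0 of 7 Sγ1 blunt tail joins, against 63.1% and 31.7% of the body. Over all joins, the Sμ tails of CtIP_AA and CtIP_KO held it in 7 of 16 (43.8%) and 5 of 12 (41.7%), against 79.2% and 70.4% of the body. Their Sγ1 tails held it in 1 of 19 (5.26%) and 4 of 26 (15.4%), against 37.8% and 40.2%. For scale, 8.66% of 492701 stretches of 20 bases in RefSeq mouse promoters (GRCm38.p6) hold the same tetramer. The printed Wildtype body read at 114663656 shows the repeat, with AGCT more than once in its prey bases. The printed prey bases at 114662012 and 114661773, which lie 293 and 532 bp past the Sμ border, also hold it, and those of the farthest blunt joins in both tails do not.

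Median lengths of the prey alignments are given for tail and body, with no test. The blunt tail medians rest on 4 to 16 joins each. In Sμ the median over blunt joins was 143 bp in the tail and 89 bp in the body for Wildtype, and 160 and 90 bp for XRCC4_KO. Over all Sμ joins it was 121 and 88 bp in CtIP_AA and 162 and 87 bp in CtIP_KO. In Sγ1 the blunt joins gave 79 and 125 bp in Wildtype, 84.5 and 123 bp in CtIP_AA, 92 and 110.5 bp in CtIP_KO, and 237 and 110 bp in XRCC4_KO. Over all Sγ1 joins the CtIP libraries went the other way, with 136 bp in the tail and 126 bp in the body of CtIP_AA and 187 and 114.5 bp in CtIP_KO. The part of alignment in repeats in how many joins were counted on each side of the border was not tested.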

How the data were processed

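Joins were read by linear amplification from a biotinylated Sμ primer, nested PCR and MiSeq sequencing of genomic DNA, with AflII used to remove unrearranged DNA, per the labels' protocols. Reads were aligned with Bowtie2 to mm9, per the submitters' processing notes. The sources used here do not state the calling, filtering or deduplication of junctions. The deposited position lists give 1 coordinate per junction, and their lengths equalled the deposited summary counts in every library. Up to 5 blunt joins of a library and region (12 in all) had emptied lines, so blunt counts are lower bounds. The authors' 20 reference bases matched the read in 95.4% to 96.7% of blunt joins.

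Tail joins were counted below the borders, and shares were given 95% Wilson intervals. PCR reads carry no molecular identifiers, so intervals, and the limits for counts of 0 (3 counts), cover counting error only. Structure, orientation and joins past the windows were compared with two-sided Fisher's exact tests, conditional odds ratios and Benjamini-Hochberg adjustment within each family, with a threshold of 0.05. Named positions were, by rule, each library's farthest join, up to 3 repeated coordinates per region and library, and up to 5 windows of 200 bp per region with 3 or more distinct coordinates. The members, lists and tests were chosen with earlier results of these data known. The tests were tried on simulated counts. Alternatives changed the border, the counting of repeated coordinates, the denominator, the windows and the microhomology length. Python 3.11.15, pandas 2.3.3 and scipy 1.17.1 were used.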

Additional observations from a re-analysis of the deposited data

How the results depend on the processing

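No paired analysis was possible because each genotype is a single library. For the same reason no library could be left out, and the number of tail joins, as few as 12 in Sμ of CtIP_KO, limits every share. The Sμ excess of XRCC4_KO past the authors' window kept its call with each coordinate counted once, an alternative chosen after the data were seen. Its inversional excess in Sμ turned to an odds ratio of 0.449 with the border 500 bp upstream, where that of CtIP_AA turned to 0.498 (exact adjusted p = 0.0359). With the border 500 bp downstream it kept its call, with 10 of 295 joins against 0 of 534 in Wildtype (odds ratio at least 4.15 by its 95% interval). There the Sγ1 inversional odds ratios turned to 0.756 in CtIP_KO and 0.645 in XRCC4_KO (exact adjusted p = 1 for each). The lower blunt share of the XRCC4_KO Sμ tail against its body passed with the border upstream (0.368, exact adjusted p = 0.00462). It also passed with each coordinate counted once among blunt joins and once among the others (0.337). Against Wildtype the XRCC4_KO tails passed with the border upstream (0.259 in Sμ and 0.303 in Sγ1) and, in Sγ1, with it downstream (0.174, exact adjusted p = 0.00555). The upstream border moves body joins into the tails, and in the body the blunt share of XRCC4_KO was also below that of Wildtype. Directions that had not passed turned as follows, without passing. Blunt tail against body became 1.33 in Wildtype and 1.59 in CtIP_AA (Sγ1, border downstream) and 0.910 in CtIP_KO (Sγ1, upstream). Blunt tail against Wildtype became 0.721 in CtIP_AA and 0.977 in CtIP_KO (Sγ1, upstream). Microhomology in Sγ1 became 0.857 in CtIP_AA and 0.760 in CtIP_KO (downstream), and at 4 or more bp it became 0 in Sμ and 0.387 in Sγ1 of CtIP_KO. The cause of these turns was not tested. The Sμ microhomology odds ratios did not turn, but fell to 1.25 in CtIP_AA and 1.49 in CtIP_KO with the border upstream. With it downstream they rose to 8.39 and 6.79, and none of these passed. The XRCC4_KO tail share ran from 11.7% to 37.6% in Sμ and from 5.56% to 16.5% in Sγ1 over the alternatives, and that of Wildtype from 1.51% to 15.6% and from 1.43% to 5.83%. The median tail distance of XRCC4_KO stayed the longest of the 4 libraries in both regions under each alternative run for it, at 665 to 1215 bp in Sμ and 1072 to 1391 bp in Sγ1. Windows of 500 bp with 3 or more distinct coordinates numbered 3 (Wildtype) and 8 (XRCC4_KO) in Sμ, and 8 in Sγ1 of XRCC4_KO.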
